A study of Mus musculus with 6 samples.

Results

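Homeobox genes of the Nkx, Lhx, Dlx, Irx and Six-family groups were examined in wt and TNFα-treated mouse colonic organoids, which are epithelial cells of the colon grown in culture. The set held 37 of the 20780 autosomal protein-coding genes considered, taken by their symbols: 12 Nkx, 8 Lhx, 6 Dlx and 6 Irx genes and 5 Six-family genes. The organoids came from C57BL/6 mice and were grown either untreated (wt) or in 40 ng/ml TNFα over 3 weeks (wt+TNFα). For each of the 2 conditions the study sequenced 1 ChIP-seq library for H3K27me3, 1 for H3K4me3 and 1 input. By the read totals that the study lists, the H3K27me3 libraries were sequenced to nearly the same depth, whereas the H3K4me3 library and the input of wt+TNFα were deeper than those of wt. No condition had a replicate, so no value below has an error or a test, and treatment and library cannot be told apart in any difference between conditions. The 4 peak lists carry no read counts, and the depth behind a single peak is therefore unknown. A promoter without a peak is one at which no peak was called, which does not show that the mark was absent.

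H3K27me3 is the histone mark deposited by Polycomb repressive complex 2 and is associated with transcriptional repression, and H3K4me3 is found at the starts of active genes and of genes poised for activity. The 5 families encode DNA-binding transcription factors with a homeodomain that specify tissues of the embryo, such as forebrain, limb, heart, kidney and endocrine organs. In differentiated cells of other lineages such developmental regulators are classical Polycomb targets, often held in wide H3K27me3 domains over CpG-rich promoters. The comparison asks what both marks looked like at these genes in colonic epithelium, and how the called marks differed after TNFα.

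Almost all members were covered by H3K27me3 and lacked an H3K4me3 peak, in both conditions. An H3K27me3 peak lay in the promoter, taken as 1000 bp to either side of each annotated transcript start, in 36 of the 37 members in wt, and in the same number in wt+TNFα, against 22.3% (wt) and 27.5% (wt+TNFα) of all autosomal protein-coding genes. The exception in both lists was Six5, which was also the member with the strongest H3K4me3 peak. An H3K4me3 peak lay in the promoter of 3 members in each condition (Irx3, Six4 and Six5), against 51.8% of all genes in wt and 52.5% in wt+TNFα. Both marks were called at the promoters of Irx3 and Six4 in each condition, 2 of 37 members (5.41%), against 5.4% of all genes in wt and 6.71% in wt+TNFα, a share of members near that of all genes. Each member had the same marks at its promoter in both conditions with the lists as deposited. With the lists cut to equal covered length, Irx3 and Six4 kept H3K4me3 in wt and had none in wt+TNFα, and with each list cut at its median −log10 q, 0 members had H3K4me3 in either condition. In a population of cells, both marks on the same allele and each mark in a different group of cells cannot be told apart.

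**Figure D1:**
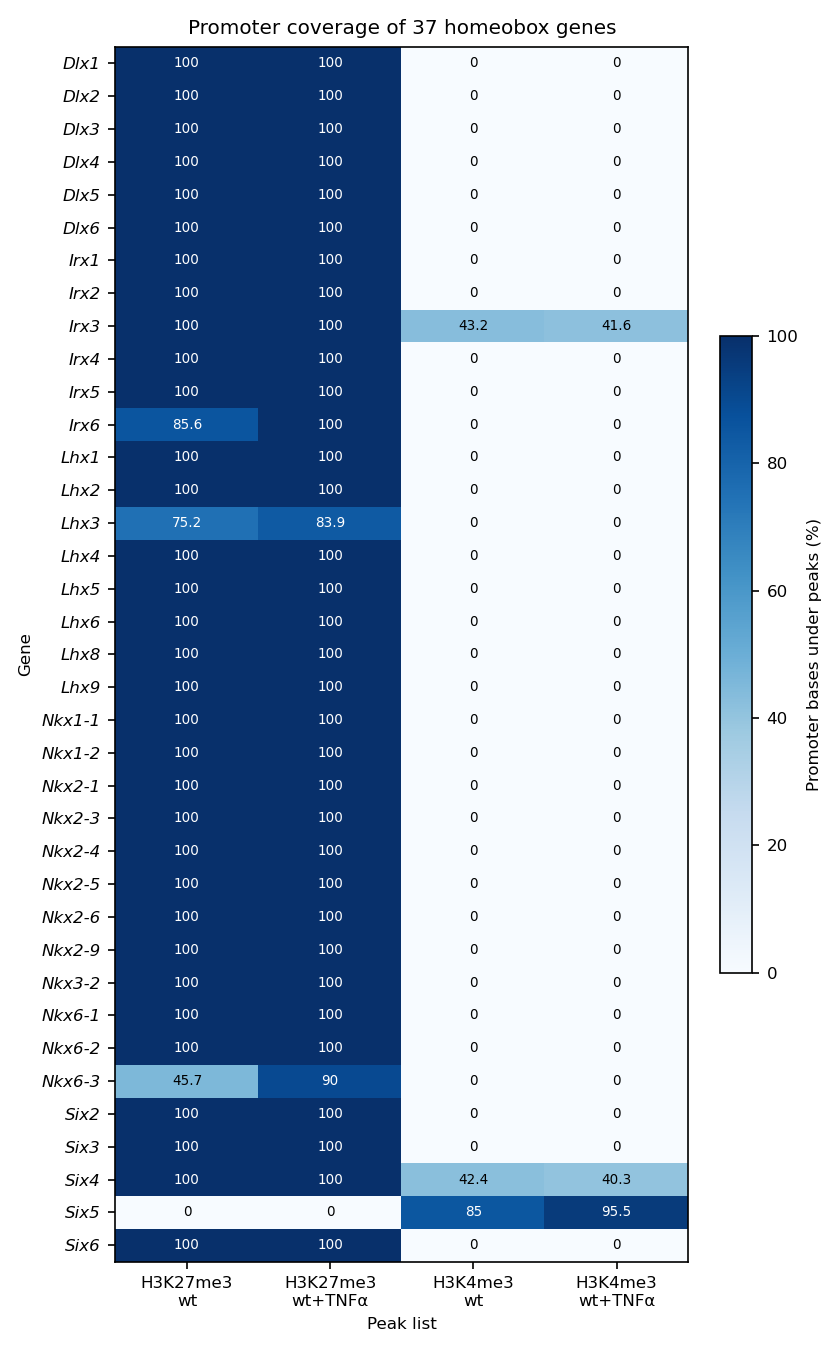
Percent of promoter bases (1000 bp to either side of each transcript start) under H3K27me3 and H3K4me3 peaks for the 37 genes (rows) in wt and wt+TNFα (columns), 1 library per column. H3K27me3 covered the whole promoter of 33 genes in wt and 34 in wt+TNFα, and the 3 genes with an H3K4me3 peak were Irx3, Six4 and Six5 in both conditions.

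The upstream sequences of 6 member starts are shown because they span the states that the peaks distinguish. Each line gives the 250 bases before a start from 5′ to 3′ on the gene's strand, from the RefSeq promoters of GRCm38.p6, with CpG dinucleotides in capitals. Six5 had H3K4me3 alone, and Six4 and Irx3 had both marks. Nkx2-4 (most CpGs among the members with a sequence) and Lhx9 (fewest among these, shared with Lhx8) had H3K27me3 alone. The outer RefSeq start of Lhx3 lay at the edge of a domain.
Six5, chr7:19094294-19094543, plus strand: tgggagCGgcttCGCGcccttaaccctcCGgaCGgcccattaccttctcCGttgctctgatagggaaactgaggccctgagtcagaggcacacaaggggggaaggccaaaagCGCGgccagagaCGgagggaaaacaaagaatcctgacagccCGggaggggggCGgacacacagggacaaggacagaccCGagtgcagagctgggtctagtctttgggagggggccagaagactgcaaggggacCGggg
Six4, chr12:73113246-73113495, minus strand: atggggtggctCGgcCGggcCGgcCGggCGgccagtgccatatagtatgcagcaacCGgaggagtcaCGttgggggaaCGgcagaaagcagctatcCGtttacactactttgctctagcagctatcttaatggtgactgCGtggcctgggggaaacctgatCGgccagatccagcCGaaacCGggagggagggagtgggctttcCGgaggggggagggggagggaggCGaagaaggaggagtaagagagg
Irx3, chr8:91801655-91801904, minus strand: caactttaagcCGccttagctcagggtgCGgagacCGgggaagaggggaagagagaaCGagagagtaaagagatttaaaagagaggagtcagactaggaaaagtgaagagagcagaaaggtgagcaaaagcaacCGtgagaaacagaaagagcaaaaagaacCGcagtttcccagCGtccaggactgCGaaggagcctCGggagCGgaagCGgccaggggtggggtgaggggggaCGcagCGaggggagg
Nkx2-4, chr2:147085346-147085595, minus strand: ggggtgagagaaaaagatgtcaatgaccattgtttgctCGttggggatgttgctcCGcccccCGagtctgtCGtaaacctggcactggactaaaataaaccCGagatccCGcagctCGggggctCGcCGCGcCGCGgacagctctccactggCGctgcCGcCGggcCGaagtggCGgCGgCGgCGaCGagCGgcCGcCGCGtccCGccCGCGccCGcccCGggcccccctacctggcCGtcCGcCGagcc
Lhx9, chr1:138842445-138842694, minus strand: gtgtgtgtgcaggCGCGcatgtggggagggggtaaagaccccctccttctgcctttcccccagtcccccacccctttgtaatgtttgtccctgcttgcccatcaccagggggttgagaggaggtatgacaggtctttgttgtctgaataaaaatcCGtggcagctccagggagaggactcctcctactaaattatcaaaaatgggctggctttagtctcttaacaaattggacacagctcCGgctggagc
Lhx3, chr2:26208250-26208499, minus strand: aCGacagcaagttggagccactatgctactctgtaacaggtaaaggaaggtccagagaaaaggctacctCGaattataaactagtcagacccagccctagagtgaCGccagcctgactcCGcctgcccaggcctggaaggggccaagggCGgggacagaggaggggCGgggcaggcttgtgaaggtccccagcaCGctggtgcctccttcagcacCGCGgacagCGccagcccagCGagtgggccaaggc
In the Six5 sequence 13 CpGs were counted, and every base lay under H3K4me3 and none under H3K27me3 in both conditions. The Irx3 sequence also held 13 CpGs and lay wholly under both marks in both conditions. The Six4 sequence held 15 CpGs, lay wholly under H3K27me3, and was 16.4% under H3K4me3 in wt and 0% in wt+TNFα. The Nkx2-4 sequence held 33 CpGs and the Lhx9 sequence 4, and both lay wholly under H3K27me3 in both conditions. The Lhx3 sequence held 11 CpGs and was 0% under H3K27me3 in wt and 11.6% in wt+TNFα.

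Sequences were found for 27 of the 37 members, with 32 starts. The members without an entry were Dlx3, Dlx4, Dlx5, Dlx6, Irx1, Irx5, Irx6, Lhx5, Nkx2-6 and Nkx6-3. The 32 windows were CpG-rich: they held a median of 17 CpGs (4 to 33), against a median of 6 over the 31396 autosomal RefSeq windows of the same length, and 30 of the 32 reached that median. Their median GC content was 63.8% (all windows 52.4%), and their median ratio of observed to expected CpGs, the count relative to what the base composition alone would give, was 0.696 (all windows 0.379). The highest ratio, 1.13, was at Nkx6-1, the regulator of pancreatic beta cell identity, and the lowest, 0.223, at Lhx9, which acts in gonad formation. The 4 windows of Irx3, Six4 (with 2 starts) and Six5 held 13 to 15 CpGs, inside the range of the 28 windows of members without H3K4me3.

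The H3K27me3 peaks at members were among the widest and strongest of their lists. Fold enrichments over the local background were computed separately for each library, so they were ranked within a list. The 36 covered members lay under 34 distinct peaks in wt, with a median width of 20060.5 bp (2527 to 96139), against 1778 bp for all autosomal H3K27me3 peaks. Their median fold enrichment was 3.69 (2.54 to 4.51), against 2.102 for all. In wt, 33 of the 34 peaks were in the top 10% of the list by fold enrichment and 32 by width. In wt+TNFα the members lay under 33 distinct peaks with a median width of 31223 bp (4396 to 98765; all peaks 2209 bp) and a median fold enrichment of 4.14 (2.44 to 4.96; all peaks 1.90). All 33 were in the top 10% by fold enrichment and 31 by width.

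**Figure D2:**
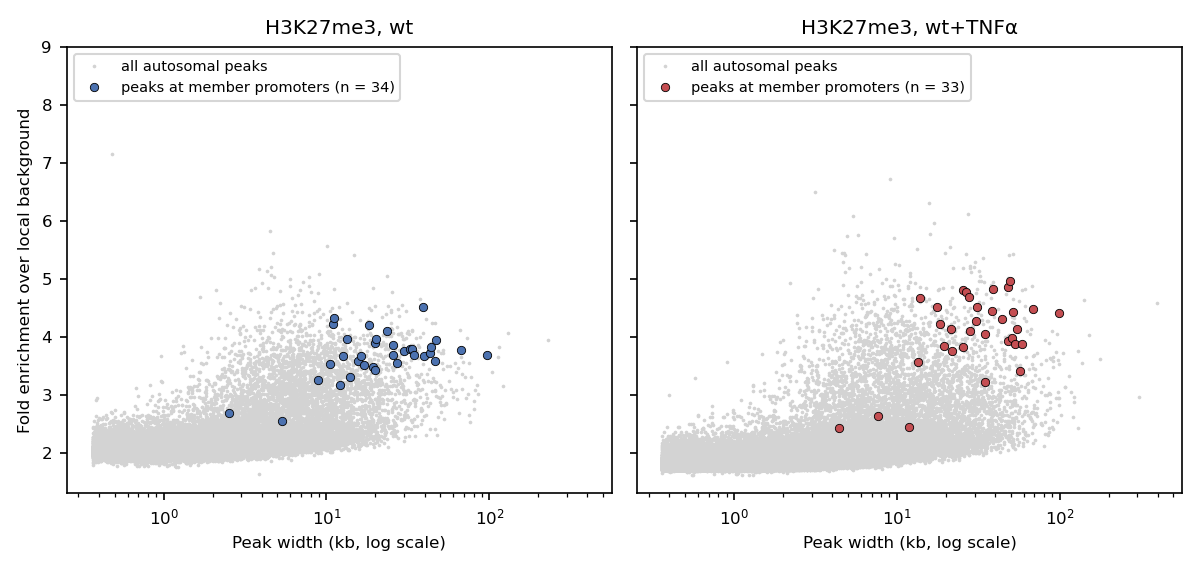
Fold enrichment against width (kb, log scale) for every autosomal H3K27me3 peak (grey) and for the distinct peaks at member promoters (coloured), wt on the left and wt+TNFα on the right, 1 library each. Most of the 34 wt and 33 wt+TNFα member peaks lie at the wide and strong end of their lists. Irx6 and Nkx6-3 lie at lower width and fold enrichment, and in wt+TNFα Six4 lies at lower fold enrichment.

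The lengths of the lists themselves differed and touch every comparison of H3K27me3 here. Autosomal H3K27me3 peaks added up to 227.9 Mb in the wt+TNFα list and 101.5 Mb in the wt list, a ratio of 2.25, whereas the ratio for H3K4me3 was 1.09. On chromosome X, where no member lies, the length under H3K27me3 was 74.7 Mb in wt+TNFα against 0.597 Mb in wt. The wt H3K4me3 list held 3 peaks on chromosome Y and the wt+TNFα list 0. TNFα treatment and any other difference between these cultures cannot be told apart. The labels give epithelial cells, and H3K4me3 lay at the promoters of 10 of 10 epithelial marker genes in wt and 9 of 10 in wt+TNFα (at Krt20, a marker of differentiated cells, it covered 22.0% of promoter bases in wt and 0% in wt+TNFα), and at none of the 6 mesenchymal, 4 blood, 3 endothelial and 4 nerve and glia markers in either condition.

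The H3K27me3 called over member promoters in wt was called in wt+TNFα too. By base, 0 members lost promoter H3K27me3, meaning bases under a wt peak and under no wt+TNFα peak. Over all genes 5.5% had such a loss, or 24.6% of the genes with a wt peak at the promoter and 15.3% of those whose wt peak was at least 10 kb wide, a width that 33 members had. Promoter H3K27me3 gained in wt+TNFα was found at 3 members (8.11%), below the 18.2% of all genes, and 33 members had no promoter base left to gain. The count of gains was 1 with upstream bases alone and 0 when whole peaks were compared. No member changed by at least 50 percentage points of its promoter in either direction, against 0.515% of all genes downward and 3.89% upward, although with 500 bp to either side the share at Nkx6-3 was 58.6 points higher in wt+TNFα. The promoter was wholly covered at 33 members in wt and 34 in wt+TNFα, against 6.21% and 9.72% of all genes. With promoters of 2000 bp to either side, 2 members (Lhx9 and Nkx6-3) lost H3K27me3 by base. The whole gene body was covered at 26 members in wt and 29 in wt+TNFα, against 2.57% and 4.51% of all genes.

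The 3 gains lay at the edges of domains. Nkx6-3, a regulator of the gastric epithelium, was 45.7% covered in wt and 89.96% in wt+TNFα, and had the weakest wt domain of the set. Its wt peak (chr8:23147843-23153182, fold enrichment 2.54) ended 87 bp upstream of the gene start, and its wt+TNFα peak (chr8:23149673-23154068, 2.44) reached 800 bp into the gene but began 1830 bp further in on the upstream side. The Nkx6-3 gene body was 64.6% covered in wt, by H3K27me3 outside that wt peak, and 58.05% covered in wt+TNFα. Irx6, an Iroquois gene of the retina, was 85.6% covered in wt and 100% in wt+TNFα, with a wt peak of 2527 bp, the narrowest of the set, and a wt+TNFα peak of 7704 bp. That wt peak reached 1173 bp into the gene, but 64.4% of the Irx6 gene body was covered in wt, so other wt H3K27me3 lay there. In wt+TNFα 84.2% of the Irx6 gene body was covered. Lhx3, which is required for pituitary and motor neuron development, was 75.2% covered in wt and 83.9% in wt+TNFα. Its wt peak stopped 558 bp inside the outermost GENCODE start and its wt+TNFα peak 11 bp inside it, so that start remained outside the domain in both conditions. The outer RefSeq start, whose upstream sequence is shown above, lies slightly further into the gene and was outside the wt peak and inside the wt+TNFα peak. The sizes of these gains depended on the promoter window: with upstream bases alone they were 8.69 points at Nkx6-3 and 0 at Irx6 and Lhx3.

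H3K27me3 domains at members were mostly wider in wt+TNFα, to a degree near that of other wide peaks. Each of the 34 wt domains overlapped a wt+TNFα peak, and the wt+TNFα peak with the most overlap was wider at 32 and narrower at 2. The wt width is that of 1 peak, so separately called wt peaks joined under 1 wt+TNFα peak count as widening and as outward shifts. The part of such joining was not tested. Among all autosomal wt peaks with a wt+TNFα counterpart 89.5% were wider, and among those of at least 10 kb 82.8%. The median ratio of widths was 1.26 at members (0.823 to 3.05), against 3.47 over all peaks and 1.46 over those of at least 10 kb. Of the 34 domains, 21 lay wholly under wt+TNFα peaks, a share near the 58.5% of all autosomal wt peaks and the 64.7% of those of at least 10 kb. The lowest share of a member domain was 65.7%, at Nkx6-3. Of the 68 domain edges, 54 lay further out in wt+TNFα and 14 further in, and the median shift was 1412 bp outward, with the edges of joined domains measured to the joined peak. An outward shift of at least 5 kb was found at 21 edges, and an inward shift of that size at 0. The narrower domains were that of Nkx6-3 and that of Irx5, an Iroquois gene of heart and retina, whose peak went from 33523 to 27667 bp (ratio 0.825). The Irx5 domain lay under 2 wt+TNFα peaks, which together covered 88.5% of it.

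**Figure D3:**
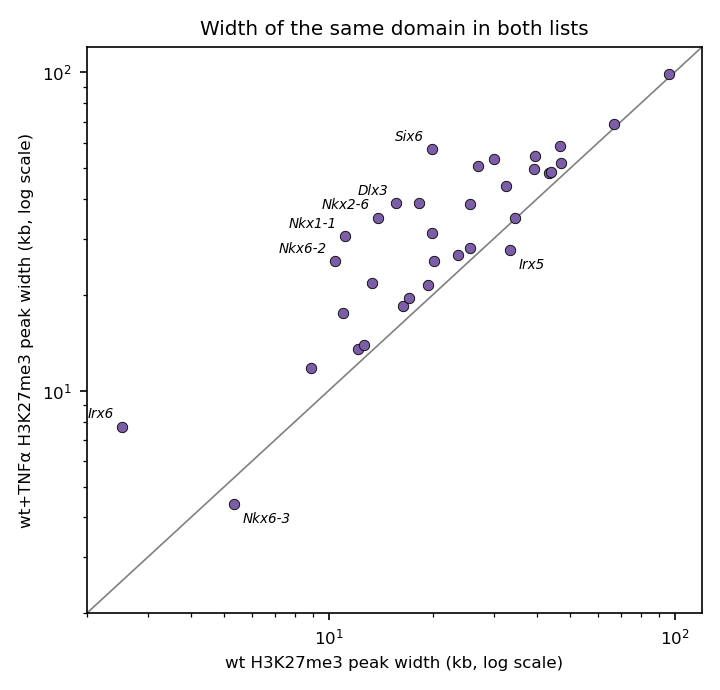
Width of each of the 34 wt H3K27me3 domains at members (horizontal) against the width of the wt+TNFα peak over it (vertical), both in kb on log scales, with the line of equal width in grey. All but Irx5 and Nkx6-3 lie above the line, and the genes named above it had ratios over 2.4.

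The Dlx genes, homologues of fly distal-less, sit in convergent pairs, and the strongest member domain of each list lay over Dlx1 and Dlx2. In wt the other Dlx domains had fold enrichments of 3.58 to 4.20, inside the range of the other families. In wt+TNFα the domains of all 6 Dlx genes had fold enrichments of 4.83 to 4.96, above those of the other families, of which Irx3 was highest at 4.81. All 6 promoters and gene bodies were wholly under H3K27me3 in both conditions, and 0 had an H3K4me3 peak. Dlx1 and Dlx2, which are required for forebrain interneurons, shared 1 domain of 39198 bp in wt and 49593 bp in wt+TNFα. Its fold enrichment was 4.51 in wt and 4.96 in wt+TNFα, the highest at a member in each list. Dlx5 and Dlx6, regulators of craniofacial and limb skeleton, shared a domain of 43376 bp in wt (fold enrichment 3.72) and 48103 bp in wt+TNFα (4.87). The wt domain extended 2821 bp further on one side than that wt+TNFα peak, and 2 wt+TNFα peaks together covered 94.7% of it. Dlx3, a regulator of skin appendages, and Dlx4 had separate wt domains of 15696 and 18289 bp. In wt+TNFα both lay under 1 peak of 38853 bp, and H3K27me3 over the span of the pair went from 83.5% to 100%.

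The Irx genes lie in clusters on chromosomes 8 and 13, and each gene had a domain of its own. Over the whole clusters H3K27me3 covered little: 14.9% (wt) and 20.1% (wt+TNFα) of the 882432 bp from Irx3 to Irx6, and 4.63% (wt) and 7.75% (wt+TNFα) of the 1311688 bp from Irx1 to Irx4. The widths at Irx1 were 12175 and 13545 bp in wt and wt+TNFα, at Irx2 19437 and 21483 bp, at Irx3 20188 and 25494 bp, and at Irx4, a gene of the heart ventricle, 19865 and 31223 bp. The 3 domains of each cluster stayed separate peaks in wt+TNFα.

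The Lhx genes encode LIM homeodomain factors, and all 8 had H3K27me3 and 0 had H3K4me3 at the promoter. Lhx2, which acts in eye, forebrain and hair follicle, had one of the widest domains, 66610 bp in wt and 68773 bp in wt+TNFα. Lhx6, which acts in migrating cortical interneurons, went from 27021 to 50883 bp, and coverage of its gene body from 90.5% to 100%. Lhx4, a pituitary regulator related to Lhx3, went from 46567 to 58821 bp, and its gene body from 89.1% to 100%. The body of Lhx8, a gene of cholinergic neurons and oocytes, was covered for 28.6% in wt and 33.8% in wt+TNFα although its promoters were wholly covered in both. Lhx1, required for head and kidney formation, went from 32593 to 43963 bp, and Lhx5, its close relative in the forebrain, from 34567 to 34958 bp. Lhx9 went from 23590 to 26771 bp. Lhx3 went from 11006 to 17534 bp.

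All 12 Nkx genes had H3K27me3 and 0 had H3K4me3 at the promoter in both conditions. The widest domain of the set lay over Nkx2-3, a gene of the gut mesenchyme and spleen, and measured 96139 bp in wt and 98765 bp in wt+TNFα, most of it upstream of the gene. Nkx2-5, the cardiac regulator, went from 47115 to 51782 bp, Nkx6-1 from 43897 to 48439 bp and Nkx3-2, a gene of cartilage, from 25673 to 28080 bp. Nkx2-1, which specifies thyroid and lung, went from 25718 to 38471 bp. The larger changes by ratio were at Nkx1-1 (11140 to 30539 bp, ratio 2.74), Nkx2-6, a gene of the pharyngeal pouches (13931 to 34968 bp, 2.51), and Nkx6-2, a gene of oligodendrocytes (10471 to 25457 bp, 2.43). The Nkx2-6 peak had a fold enrichment of 3.31 (wt) or 3.22 (wt+TNFα). Nkx2-4 went from 13345 to 21800 bp, Nkx1-2 from 16402 to 18499 bp and Nkx2-9 from 17034 to 19620 bp.

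The Six-family genes, homologues of fly sine oculis, were the most varied family: 4 of 5 had H3K27me3 and 2 had H3K4me3 at the promoter in each condition. Six3, a regulator of forebrain and eye, and Six2, which maintains nephron progenitors, are neighbours. Their domains measured 39621 and 30055 bp in wt and 54700 and 53222 bp in wt+TNFα, and coverage of their joint span went from 78.7% to 94.5%. Six6, a gene of retina and hypothalamus, had a domain that went from 19933 to 57335 bp, with 35281 bp of the increase on its downstream side, the largest shift of an edge in the set, at fold enrichments of 3.43 and 3.41.

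**Figure D4:**
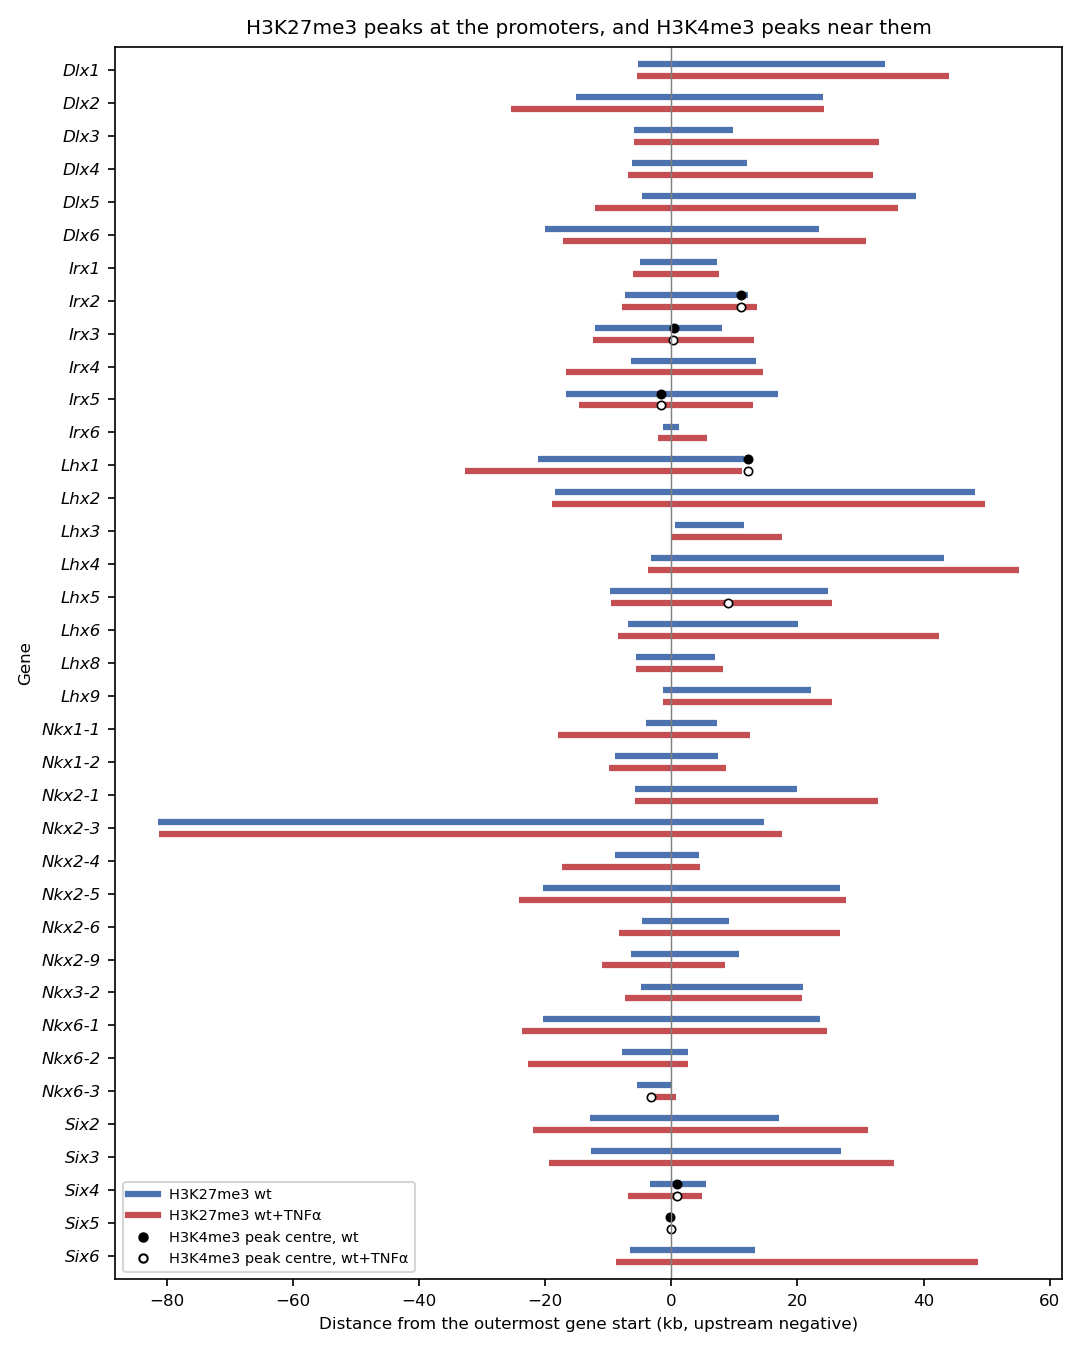
H3K27me3 peaks at the promoters of the 37 genes in wt (blue) and wt+TNFα (red), by distance from the outermost gene start in kb with upstream negative, and centres of H3K4me3 peaks within 5 kb of a member gene (start to end) or touching its domain (filled, wt, and open, wt+TNFα). Most red bars reach past the blue bars on at least 1 side, Six5 has no bar, and neighbouring genes such as Dlx1 and Dlx2 show the same peak from each start.

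Where H3K4me3 was called at members, it was weak except at Six5. Over all autosomal H3K4me3 peaks the median fold enrichment was 25.1 in wt and 27.5 in wt+TNFα. Six5, a broadly expressed family member that lies next to Dmpk at the myotonic dystrophy locus, had an H3K4me3 peak at chr7:19093388-19095293 in wt (fold enrichment 27.2, percentile 56.5 of its list) and at chr7:19093524-19095503 in wt+TNFα (21.7, percentile 37.3). The peak covered 85.0% of its promoter in wt and 95.5% in wt+TNFα. That difference of 10.5 points became 0 with 500 bp to either side or with upstream bases alone. When each list was cut at its median −log10 q, 0 members kept an H3K4me3 peak in either condition, Six5 included. The nearest H3K27me3 peak to Six5 lay 17.4 kb from the gene start in wt and 7.9 kb away in wt+TNFα.

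Irx3 and Six4 had a small H3K4me3 peak within a much wider H3K27me3 domain, and both peaks were lower in fold percentile in wt+TNFα. At Irx3, an Iroquois gene of heart and limb, the H3K4me3 peak was at chr8:91801154-91802084 in wt (fold enrichment 9.62, percentile 14.1) and at chr8:91801332-91802226 in wt+TNFα (7.06, percentile 7.13). It covered 43.2% (wt) and 41.6% (wt+TNFα) of the promoter, inside H3K27me3 domains of fold enrichment 3.96 and 4.81. The direction of that difference depended on the window: it was -1.67 points here and 12.3 points, higher in wt+TNFα, with 500 bp to either side or with upstream bases alone. At Six4, a gene of developing muscle, the peak lay downstream of the outermost start, at chr12:73111830-73113286 in wt (12.3, percentile 20.1) and chr12:73111751-73113242 in wt+TNFα (11.1, percentile 16.6). It covered 42.4% and 40.3% of the promoter, a difference of -2.17 points that turned to 0.868 with 2000 bp to either side. The H3K27me3 domain there measured 8899 bp in wt (fold enrichment 3.26) and 11817 bp in wt+TNFα (2.45).

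**Figure D5:**
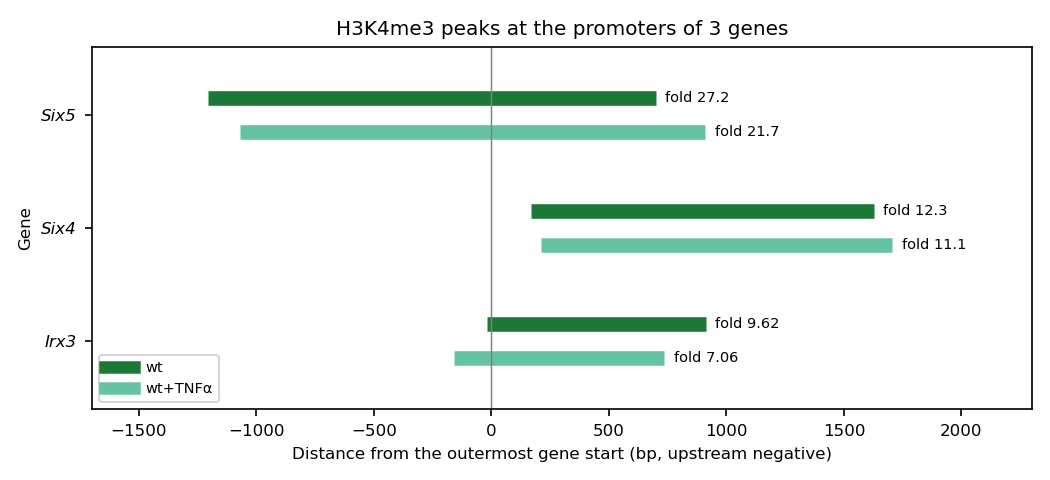
H3K4me3 peaks at the promoters of Six5, Six4 and Irx3 in wt (dark) and wt+TNFα (light), by distance from the outermost gene start in bp with upstream negative, each labelled with its fold enrichment. Each peak lies at nearly the same place in both conditions, and the label at Six5 (27.2 and 21.7) is above those of the other genes.

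By base, the H3K4me3 differences at member promoters were small shifts of peak edges. H3K4me3 gained in wt+TNFα was found at 2 members, Irx3 with 142 bp and Six5 with 210 bp, against 42% of all genes. H3K4me3 lost was found at 2, Irx3 with 178 bp and Six4 with 44 bp, against 21.4%. These counts depended on the settings, ranging from 0 to 4 for gains and from 0 to 4 for losses, with 0 of each when whole peaks were compared. The H3K4me3 library of wt+TNFα was the deeper of the pair, and the part of depth in the gains was not tested. The other 34 members had no promoter H3K4me3 to lose, and none was called at their promoters in wt+TNFα.

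Few other H3K4me3 peaks lay inside the member domains. With those of Irx3 and Six4 included, 5 peaks touched the 34 domains in wt and covered 0.365% of their bases, and 6 peaks touched the 33 domains in wt+TNFα and covered 0.383%. Irx2 had such a peak in both conditions, 6991 bp from its nearest start in wt and 6912 bp in wt+TNFα, with no annotated start within 1000 bp of it. In the Irx5 domain a peak lay 1426 bp from the Irx5 start in wt and 1430 bp in wt+TNFα, at the start of the noncoding RNA gene Crnde. The fold enrichment of that peak was 6.19 in wt (percentile 4.64) and 7.94 in wt+TNFα (percentile 9.63). At the edge of the Lhx1 domain, the H3K4me3 peak of the neighbouring gene Aatf overlapped 1.75% of its own length with H3K27me3 in wt and 0% in wt+TNFα. In wt+TNFα and not in wt, peaks were called within the gene body of Lhx5 (chr5:120440336-120440856, fold enrichment 6.18, percentile 4.20) and 3065 bp from Nkx6-3, at the start of the antisense gene Gm15816 (chr8:23149732-23150204, 8.43, percentile 10.6). Both were weak for their list, and neither reached a member promoter. The part of the greater H3K4me3 depth of wt+TNFα in these peaks was not tested.

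Of the 34 wt domains, 33 contained no start of a protein-coding gene other than the members, and the exception was the Six6 domain, with 4930447C04Rik. Noncoding genes started in 25 of them, with the most, 9, in the Six3 domain. These counts were not compared with other wide domains. Among the noncoding genes were Dlx1as, Dlx6os1, Six3os1, Lhx1os, Irx3os and Crnde, named after or transcribed next to the members.

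Genes for proteins that work with LIM homeodomain or Six-family factors were less uniformly marked than the members. Of 11 autosomal partners, the Ldb and Lmo adaptors and the Eya and Dach cofactors, promoter H3K27me3 was called at 7 (wt) and 8 (wt+TNFα), and H3K4me3 at 5 in each condition. Ldb1, the common adaptor of LIM factors, Lmo4 and Eya3 had H3K4me3 and no H3K27me3 in both conditions. Lmo1 was 100% under H3K27me3 in both. Dach1, which works with the Eya cofactors, had both marks, and its H3K27me3 went from 55.2% to 100% of promoter bases. Promoter H3K27me3 was lost by base at 3 partners and gained at 6, against 5.5% and 18.2% of all genes. Among partners with a wt peak at the promoter 42.9% had a loss, against 24.6% of all genes with such a peak. Eya2 went from 19.96% to 48.0%. Cdx1 and Cdx2, homeobox genes that define the intestinal epithelium, showed the opposite of the members, with H3K4me3 at 2 of 2 promoters and H3K27me3 at 0 of 2 in each condition.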

How the data were processed

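ChIP-seq libraries of H3K27me3 and H3K4me3, 1 of each mark for wt and 1 for wt+TNFα colonic organoids, were used. The authors' reads went through fastp, bwa-mem alignment to GRCm38/mm10 (BWA 2.2 per the labels), duplicate removal in SAMtools 1.11 and a blacklist filter, and the authors called peaks over input by MACS2 (2.1.0 per the labels, and the methods and the reporting summary give different versions), with a broad cutoff of 0.01 for H3K27me3. The deposited fold enrichment is a ratio of ChIP signal to local background, and the deposited p-values and q-values are −log10. The score column made by the authors was not used in any result. The names of 3 of the 4 deposited lists mention a spike-in, and that of wt+TNFα H3K27me3 does not. The inputs were not analysed here.

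Peaks were set against the GENCODE vM21 annotation, in 1-based coordinates. A gene was assigned a mark when at least 1 bp of a peak lay in its promoter, and 27 symbols with several gene records were left out. Bases called in 1 condition and not in the other were counted as lost or gained. Every member may be named, and full values are given for members with both marks, with H3K4me3, or without H3K27me3 at the promoter. The members and lists were chosen with earlier results of these data known. Not every gene under the naming rule or in the lists is reported here. With 1 library per condition and mark no test was run and no p-value computed. There were 10 alternative settings for the promoter counts. Simulated peak lists used 600 autosomal protein-coding genes drawn at random, each with 1 annotated start. In them 100% of the 100 planted changes of each kind were recovered, with 0 others called. The planted H3K27me3 changes were whole peaks present in 1 list only, unlike the edge shifts reported at members. Stretches of at least 1.5 Mb without a peak in any list numbered 191 and held 1227 genes and 0 members. Without them, 23.7% of genes had H3K27me3 and 55% H3K4me3 at the promoter in wt. Python 3.11.15 and matplotlib 3.10.9 were used.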

Additional observations from a re-analysis of the deposited data

How the results depend on the processing

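Of 120 recomputed counts, 95 stayed within 1.5 times the reported count and 25 did not. The counts of members with H3K27me3 at the promoter stayed within that limit in both conditions under every setting tried. Of the 3 gains of H3K27me3, 1 was counted with upstream bases alone and 0 with whole peaks subtracted. The count of losses, 0, was 2 with promoters of 2000 bp on each side (Lhx9 and Nkx6-3), and the count of members up by at least 50 points, 0, was 1 with 500 bp (Nkx6-3). When each list was cut at its median −log10 q, H3K4me3 was counted at 0 members in wt and 0 in wt+TNFα, both marks at 0 and 0, and gains and losses at 0 and 0. With lists cut to equal covered length, H3K4me3 was counted at 1 member in wt+TNFα (Six5), both marks there at 0, and H3K4me3 gains at 1. Both marks, at 2 members in each condition, were counted at 1 in wt and 1 in wt+TNFα with upstream bases. The 2 H3K4me3 gains became 1 with 500 bp, 4 with 2000 bp, 1 with upstream bases, 1 with an overlap of at least 200 bp and 0 with whole peaks. The 2 losses of H3K4me3 became 1, 4, 0, 0 and 0 under the same settings. The change in H3K4me3 share, wt+TNFα minus wt, turned at Irx3 from -1.67 points to 12.3 with 500 bp and to 12.3 with upstream bases, and at Six4 from -2.17 to 0.868 with 2000 bp. Of 48 recomputed single-gene changes in share, 20 others moved in size without turning. The H3K27me3 change at Irx6, 14.4 points, became 0 with 500 bp, upstream bases or 1 start per gene and 44.3 with 2000 bp, that at Nkx6-3, 44.3, became 8.69 with upstream bases and 21.7 with 2000 bp, and that at Lhx3, 8.69, became 0 with upstream bases, 13.7 with 500 bp and 27.3 with 1 start per gene. The H3K4me3 change at Six5, 10.5, became 0 with 500 bp or upstream bases and 1.85 with 2000 bp. With equal covered length the H3K4me3 changes at Irx3 and Six4 became -43.2 and -42.4. The causes were not tested. No paired analysis was possible because each condition and mark has 1 library, which also means that none could be left out. The count of wider domains was 32 under 4 settings added after seeing the data. Those settings dropped whole weaker peaks and left the widths of the kept peaks unchanged, so the count could hardly change.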

Other observations

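Of 41 related homeobox genes, promoter H3K27me3 was called at 34 (wt) and 35 (wt+TNFα), 14 and 13 had H3K4me3, and 7 had both marks in each condition. Isl1, a LIM homeodomain gene of motor and endocrine cells, had 86.1% of its promoter bases under H3K27me3 in wt and 68.1% in wt+TNFα, and 12.5% and 36.2% under H3K4me3. Msx1 and Msx3 were wholly under H3K27me3 in both conditions, and their H3K4me3 went from 17.5% and 21.0% to 0%. Meis1, a cofactor of Hox proteins, went from 68.1% to 100% under H3K27me3.

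Of 39 Sox, Pax and Tbx genes, promoter H3K27me3 was called at 33 (wt) and 32 (wt+TNFα), and 7 had H3K4me3 in each condition (1 of these 39 genes lay in a stretch without peaks). Promoter H3K27me3 was lost by base at 3, or 9.09% of those with a wt peak, against 24.6% of all genes with such a peak. Of 41 Fox genes, 22 and 23 had H3K27me3 and 22 and 20 had H3K4me3. All these counts describe 1 library per condition and were not tested.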
